A study of Homo sapiens with 2 samples.

Results

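S100 proteins and annexins are the calcium-binding protein families described here, through 10 genes chosen by name: S100A4, S100A6, S100A10, S100A11, S100A13, ANXA1, ANXA2, ANXA5, ANXA6 and ANXA7. All 10 had a value, out of 12353 genes in the table. Their nascent transcription was measured by GRO-seq, in which polymerases engaged in isolated nuclei extend their RNA with a brominated nucleotide and the labelled RNA is captured and sequenced. The samples were 2 biological replicates of BJ cells, a line of human skin fibroblasts, kept untreated in medium with fetal calf serum. They form 1 group with no mutant, treated or control arm, so the measurements below are levels, ratios between genes and the spread between replicates, and no p-value was computed.

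S100 proteins are small dimers with a pair of EF-hands, the helix-loop-helix units that hold calcium. On binding calcium most of them expose a surface that grips a target protein. Annexins are larger proteins whose repeated core binds acidic phospholipids in the presence of calcium, which places them at the inner face of the plasma membrane and on endosomes. The families meet in complexes in which an S100 dimer joins a pair of annexin molecules by their N-terminal tails: S100A10 with ANXA2, and S100A11 with ANXA1. Fibroblasts are known to make several members of both families in quantity.

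Values are FPKM, the fragments per kilobase of gene scaled to library size, as deposited by the authors for library a and library b, with means ± SD over the 2 libraries (n = 2). With 2 values such an SD is only a rough guide to the error. Read depth is unknown, and the sources used here do not state the gene length behind each FPKM, so a level compared between genes also carries that length. The median gene had a mean FPKM of 11.7, and the highest 25% of genes began at 22.2. The libraries ranked the genes nearly alike (Spearman rho 0.986 across genes, which are not independent replicates), and the median gene differed between them by a factor of 1.10. Of the fibroblast markers all 10 had values, with a median of 57.5 FPKM, led by COL1A1 (649 ± 48.1) and VIM (539 ± 9.28) and lowest for DCN (7.34 ± 0.495). Markers of other cells had values for 2 of 8 genes of keratinocytes (KRT10 at 38.2 ± 3.87 and CDH1 at 1.49 ± 0.0141), 2 of 8 for myeloid cells (CD68 at 114 ± 2.44 and CSF1R at 8.66 ± 1.15, with a median of 61.4), 4 of 6 for melanocytes (from PMEL at 22.4 ± 2.23 and MITF at 9.91 ± 1.44 to SOX10 at 3.17 ± 0.926) and 1 of 6 for endothelium (CLDN5 at 7.88 ± 0.141). The leukocyte marker PTPRC, the keratins KRT5 and KRT14 and the endothelial markers PECAM1 and CDH5 had no value. The part of other cells in the levels below was not tested.

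As a set the 10 genes lay well above the typical gene in FPKM, but unequally, with ANXA7 near it. Their median was 57.4 FPKM (57.3 in library a, 57.6 in library b), which was 4.91 times the median of all genes. Of the 10, 9 lay in the highest 25% of genes (background 25%), and 4 reached an FPKM of 100 (background 2.43%). The 10 were chosen with earlier results of these data known, so these counts describe them and do not test them against all genes. In a bulk culture, fewer cells transcribing a gene and less RNA per cell cannot be told apart. The 10 genes spanned a 24.8-fold range of mean FPKM from S100A6 at the top to ANXA7 at the foot.

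**Figure D1:**
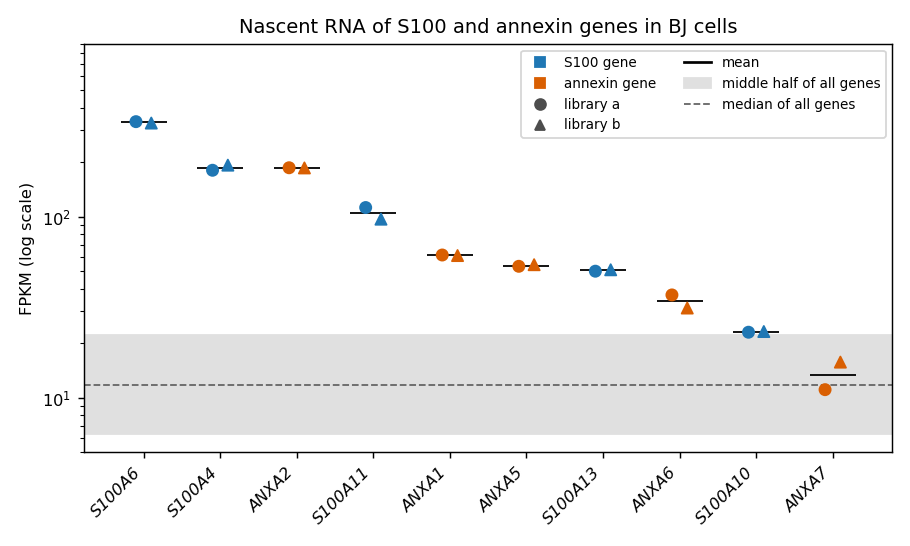
FPKM on a log axis for the 10 genes in order of mean level, with a circle for library a, a triangle for library b and a bar for the mean; the grey band runs between the quartiles of all genes and the dashed line is the median of all genes. ANXA7 alone had its libraries on either side of the median gene, at 11.1 and 15.7.

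Among the S100 genes the levels stepped down from S100A6 through S100A4, S100A11 and S100A13 to S100A10. S100A6, or calcyclin, which binds annexins and the ubiquitin ligase adaptor CACYBP, had 334.94 and 328.97 FPKM in libraries a and b, a mean of 332 ± 4.22 that placed it 67th of all genes. S100A4, known for binding the heavy chain of nonmuscle myosin and much used as a fibroblast marker, had 180 and 193 FPKM (mean 186 ± 8.55, rank 126). S100A6 was the higher in each library, by 1.78-fold (log2 ratio 0.83 ± 0.0845). S100A11, or calgizzarin, the partner of ANXA1, had 112 FPKM in library a and 96.8 FPKM in the other library (mean 105 ± 10.9, rank 282). S100A13, which takes part in the release of FGF1 and interleukin 1 alpha from cells without a signal peptide, had 49.9 and 50.9 FPKM (mean 50.4 ± 0.643, rank 847). S100A10, also called p11, the one S100 protein that holds its active shape without calcium, was the lowest, at 23.0 and 23.2 FPKM (mean 23.1 ± 0.141, rank 2904). It stood at percentile 76.5 of all genes, just inside the highest 25%.

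Among the annexins ANXA2 stood apart. ANXA2, which binds membranes and actin and, with S100A10, the plasminogen activator system at the cell surface, had 186.29 and 185.86 FPKM (mean 186 ± 0.304, rank 127). ANXA1, the anti-inflammatory annexin once called lipocortin, had 61.4 and 60.9 FPKM (mean 61.2 ± 0.311, rank 626). ANXA5, whose affinity for phosphatidylserine makes it the usual probe of dying cells, followed at 53.2 and 54.2 FPKM (mean 53.7 ± 0.771, rank 761). ANXA2 thus exceeded ANXA1 by 3.04-fold and ANXA5 by 3.46-fold. ANXA6, the annexin with a duplicated core, had 36.9 FPKM in library a, higher than its 31.3 in library b (mean 34.1 ± 4.01, rank 1641). ANXA7, or synexin, a partner of the EF-hand protein sorcin, had 11.1 and 15.7 FPKM (mean 13.4 ± 3.28, rank 5496), which put it at 1.14 times the median gene and outside the highest 25%. In library a alone it lay below the median gene, with a log2 level of -0.088 against it.

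The families overlapped in level. The S100 median was 105 FPKM and the annexin median 53.7, a ratio of 1.95 (2.11 in library a and 1.78 in library b). Each family was itself spread widely, by 14.4-fold from S100A6 to S100A10 and by 13.9-fold from ANXA2 to ANXA7. Ordered by level, the genes ran S100A6, S100A4, ANXA2, S100A11, ANXA1, ANXA5, S100A13, ANXA6, S100A10, ANXA7. Apart from S100A4 and ANXA2, which changed places, the order was the same in both libraries. Of the 45 pairs of these genes, 44 had a mean log2 ratio beyond 2 SD over the libraries, with the same sign in both. S100A4 and ANXA2 were the exception, with a log2 ratio of 0.00 ± 0.0685. The next closest neighbours, ANXA5 and S100A13, differed by 1.07-fold and ANXA1 and ANXA5 by 1.14-fold. The step from ANXA5 to S100A13 is smaller than the factor of 1.10 by which the median gene differed between libraries. With 2 libraries the 2 SD rule is loose, and the share of all gene pairs that pass it was not computed. The 44 pairs thus describe an order and show nothing particular to these genes.

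The replicates were close for most of the genes. No member differed by more than 1.5-fold between libraries, which is near the share over all genes, 2.16%. Of the 10, 3 differed by more than the median gene. In the highest of 5 equal groups of genes by level, which held 8 of the 10, the median factor was lower, at 1.066. Of those 8, S100A4 (1.067), S100A11 and ANXA6 exceeded it. ANXA7 was 1.42-fold higher in library b, whereas ANXA6 was 1.18-fold and S100A11 1.16-fold higher in library a. The smallest factor was that of ANXA2, at 1.002. S100A11 has 10 pseudogenes by name in the RefSeq table and ANXA2 has 3, and reads from such copies can be counted for the parent or lost. The sources used here do not state how reads with several matches were treated, so these values are uncertain to that extent.

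The partner genes S100A10 and ANXA2 had very unequal levels of FPKM. S100A10 had 23.1 ± 0.141 FPKM and ANXA2 186 ± 0.304 FPKM, so that S100A10 was 8.04-fold lower. In library a the FPKM ratio of S100A10 over ANXA2 was 0.123, and in library b 0.125, a log2 ratio of -3.01 ± 0.0112. S100A11 and ANXA1 stood the other way round, with the S100 gene the higher. S100A11 had 105 ± 10.9 FPKM and ANXA1 61.2 ± 0.311 FPKM, and their FPKM ratio came to 1.83 in library a and 1.59 in b (log2 ratio 0.77 ± 0.144, 1.70-fold). Both ratios exceeded 2 SD and kept their direction in each library. Each is a ratio of FPKM from nascent RNA, not of protein, and its size also depends on the unknown gene lengths behind the FPKM.

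**Figure D2:**
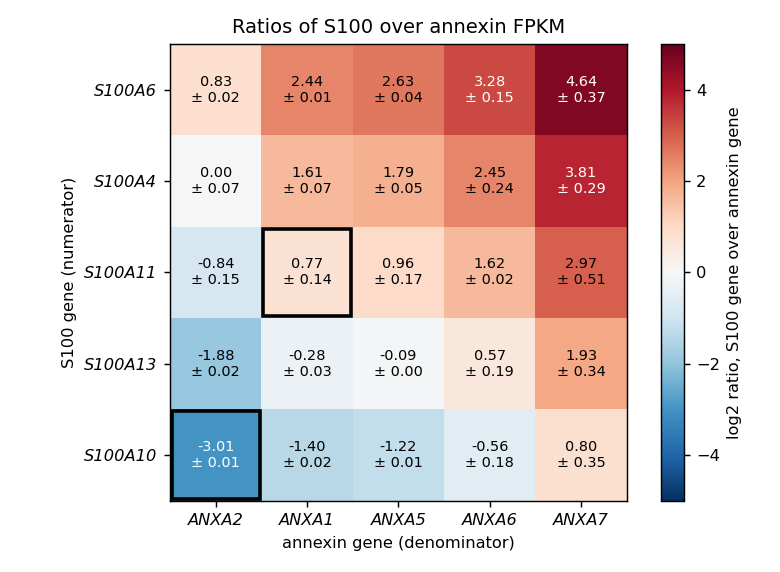
Mean log2 ratio of FPKM, S100 gene (rows) over annexin gene (columns), with the SD over the 2 libraries beneath; red means the S100 gene was higher and blue the annexin gene, and the known partners are boxed. S100A10 over ANXA2 is the lowest of the 25 ratios, and S100A11 over ANXA1 is close to the middle.

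Set among all 25 ratios of an S100 member over an annexin member, 17 were above 1 and 8 below. S100A10 over ANXA2 was the lowest of them, which follows from S100A10 being the lowest S100 gene and ANXA2 the highest annexin. S100A11 over ANXA1 was 11th from the lowest. The highest was S100A6 over ANXA7, at 25.005-fold as the mean log2 ratio of the libraries, against 24.8-fold as the ratio of mean FPKM. Other known partners gave further ratios. S100A6 exceeded ANXA2 by 1.78-fold and ANXA11, an annexin known to bind it (16.3 ± 0.707 FPKM), by 20.3-fold. S100A11 was 1.78-fold lower than ANXA2. Sorcin, SRI (6.63 ± 0.778 FPKM), was 1.98-fold lower than ANXA7, whereas PDCD6, a penta-EF-hand protein that binds the tails of ANXA7 and ANXA11 (27.0 ± 3.30 FPKM), was 2.03-fold and 1.65-fold above them. S100A4 was 2.89-fold above MYH9, the myosin heavy chain gene it partners (64.7 ± 8.68 FPKM), and S100A6 11.2-fold above CACYBP (29.6 ± 2.76 FPKM). Each of the 10 partner ratios exceeded 2 SD over the libraries, a rule for which the share over all gene pairs was not computed.

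The sequence before the transcription start is shown for the partner pairs and for the S100 genes with the highest levels, because it is where their polymerases load. Each is the 250 bases upstream of the RefSeq start on GRCh38.p14, read 5′ to 3′ on the strand of the gene. Capitals mark the motifs searched on both strands, namely the TATA box TATAAA, the CCAAT box, the GC box GGGCGG, the AP-1 motif TGANTCA, the E-box CACGTG and the TEAD motif GGAATG. The windows are S100A10 (chr1:151993860-151994109, minus strand), ANXA2 (chr15:60397987-60398236, minus strand), S100A11 (chr1:152037005-152037254, minus strand), ANXA1 (chr9:73151615-73151864, plus strand), S100A6 (chr1:153535992-153536241, minus strand) and S100A4 (chr1:153545807-153546056, minus strand).
S100A10: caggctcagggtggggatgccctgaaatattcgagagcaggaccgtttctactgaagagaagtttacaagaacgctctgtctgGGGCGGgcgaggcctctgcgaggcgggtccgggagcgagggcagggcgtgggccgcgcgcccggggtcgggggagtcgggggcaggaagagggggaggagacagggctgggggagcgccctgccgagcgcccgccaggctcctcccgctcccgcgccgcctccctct
ANXA2: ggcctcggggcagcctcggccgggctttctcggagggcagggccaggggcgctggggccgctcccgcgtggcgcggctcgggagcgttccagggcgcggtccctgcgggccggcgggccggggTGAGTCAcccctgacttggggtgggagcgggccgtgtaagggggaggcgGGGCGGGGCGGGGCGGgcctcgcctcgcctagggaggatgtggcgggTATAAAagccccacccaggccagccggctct
S100A11: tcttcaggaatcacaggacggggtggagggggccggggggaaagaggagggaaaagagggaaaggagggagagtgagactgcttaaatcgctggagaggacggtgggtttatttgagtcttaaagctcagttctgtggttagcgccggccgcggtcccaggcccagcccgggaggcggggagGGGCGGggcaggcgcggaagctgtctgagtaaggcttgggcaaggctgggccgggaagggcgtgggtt
ANXA1: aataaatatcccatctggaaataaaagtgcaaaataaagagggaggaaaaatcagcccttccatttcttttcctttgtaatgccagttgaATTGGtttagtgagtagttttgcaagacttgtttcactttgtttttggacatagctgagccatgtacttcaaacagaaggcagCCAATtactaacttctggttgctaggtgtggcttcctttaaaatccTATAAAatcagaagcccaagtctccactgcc
S100A6: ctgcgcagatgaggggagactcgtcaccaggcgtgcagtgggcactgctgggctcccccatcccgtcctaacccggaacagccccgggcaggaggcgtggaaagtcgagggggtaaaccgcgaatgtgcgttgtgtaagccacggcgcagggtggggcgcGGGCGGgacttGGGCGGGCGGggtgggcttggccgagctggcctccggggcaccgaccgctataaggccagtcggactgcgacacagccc
S100A4: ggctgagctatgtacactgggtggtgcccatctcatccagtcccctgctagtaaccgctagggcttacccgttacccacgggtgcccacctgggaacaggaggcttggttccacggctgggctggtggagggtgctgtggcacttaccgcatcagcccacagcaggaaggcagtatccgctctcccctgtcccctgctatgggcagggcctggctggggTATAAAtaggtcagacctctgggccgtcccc

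The partners had different motifs in these windows, and a relation of motifs to level was not tested. ANXA2 had TATAAA beginning 31 bases before the start, a run of 3 overlapping copies of GGGCGG at 78, 73 and 68 bases, and TGANTCA, in the form TGAGTCA, at 127 bases. S100A10 had no TATAAA and a single GGGCGG at 167 bases. ANXA1 had TATAAA at 31 bases and CCAAT in each orientation, at 77 and 160 bases, in a window with 38.4% G and C and 0 CpG dinucleotides. S100A11 had a single GGGCGG at 68 bases in a window with 63.6% G and C and 15 CpG. S100A6 held GGGCGG at 90, 79 and 75 bases, the last overlapping the one before it, and S100A4 held TATAAA at 31 bases and none of the other motifs.

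Over all 10 genes RefSeq gave 13 windows, because S100A13 has 3 starts and ANXA6 has 2. TATAAA was in 4 of the 13, those of S100A4, ANXA1, ANXA2 and 1 start of S100A13, against 6.06% of the 14536 windows of genes with a value and 10.7% of all 35116 windows. It began 31 bases before the start in the first 3 and 29 bases before it in S100A13. GGGCGG was in 8 of 13 (62.7% of the windows of genes with a value, 42.6% of all), CCAAT in 4 (33.0% and 32.0%), TGANTCA in 1 (4.57% and 6.57%), CACGTG in 1, that of ANXA6 (8.23% and 6.34%), and GGAATG in 0 (10.04% and 11.9%). Their median window had 63.6% G and C and 15 CpG, against 64.4% and 20 for genes with a value. The members were chosen with earlier results of these data known, so these counts describe their windows and do not test them against other genes. A match describes the letters and does not show binding, and the starts used in BJ cells were not measured here.

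The S100 members sit in a family cluster on chromosome 1, where FPKM varied sharply from gene to gene. Of the 16 S100 genes from S100A10 to S100A1 in RefSeq order, 11 had values. S100A10 and S100A11 are adjacent coding genes, with 47 other coding genes between them and the rest of the cluster, and S100A11 was 4.53-fold above S100A10 as a ratio of mean FPKM, like the other folds between adjacent genes here. S100A6, S100A5, S100A4 and S100A3 follow one another on the same strand, at 332, 20.8, 186 and 14.2 FPKM. S100A6 was thus 15.98-fold above S100A5, and S100A4 was 8.98-fold above S100A5 and 13.1-fold above S100A3. S100A13 was 11.3-fold above S100A14 on one side and 5.48-fold above S100A1 on the other. The annotated span of S100A4 overlaps S100A5, and that of S100A13 overlaps S100A1 and CHTOP. S100A4 and S100A6 each overlap a long noncoding RNA gene, and ANXA2 overlaps the pseudogene RPL36AP44. S100A4 and S100A5 lie on the same strand, so strand could not separate their reads. S100A13 and S100A1 lie on opposite strands, but the sources used here do not state whether strand was used when reads were counted. Reads of overlapping genes may thus not be separated. The levels of S100A4, S100A6, S100A13 and ANXA2 and the ratios made with them are uncertain to that extent. So are the folds over S100A5 and S100A1.

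**Figure D3:**
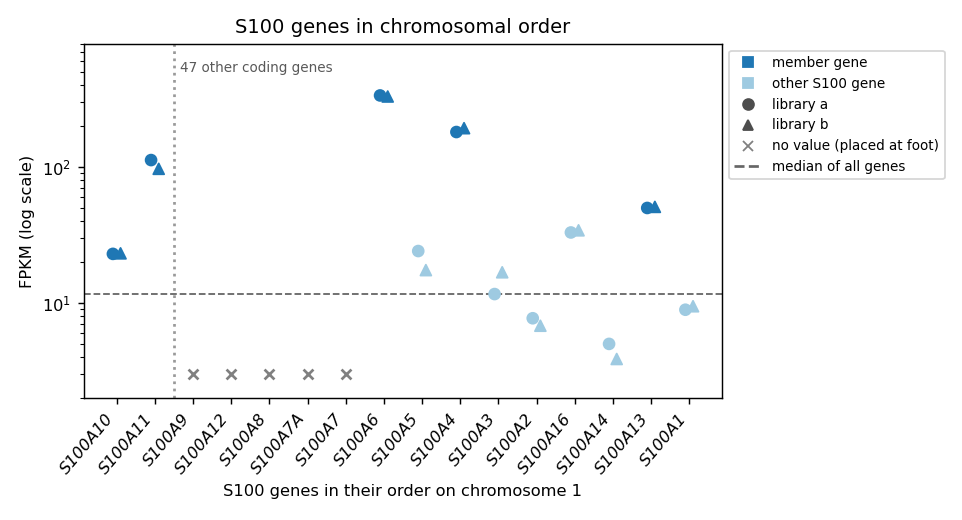
FPKM on a log axis for the S100 genes in their order along chromosome 1, with circles for library a, triangles for library b, dark marks for the members and crosses at the foot for genes with no value. S100A6 and S100A4 stand above their neighbours S100A5 and S100A3, and the 5 genes from S100A9 to S100A7 have no value.

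Of the 15 other S100 genes listed, 7 had a value, 3 of them above the median gene, with a median of 9.20 FPKM, against 105 for the 5 members. S100A16 was highest, at 33.6 ± 0.863 FPKM, above the member S100A10, and S100A5 followed at 20.8 ± 4.70 FPKM. The S100A5 value may hold reads of S100A4, which overlaps it on the same strand. S100A3, a gene known from hair cuticle, had 14.2 ± 3.66 FPKM, S100A1, a regulator of calcium release in heart muscle, 9.20 ± 0.382, S100A2, an epithelial gene, 7.27 ± 0.651, S100P 5.60 ± 0.679 and S100A14, another epithelial gene, 4.45 ± 0.799. No value was listed for S100A8, S100A9 and S100A12, which are known from neutrophils and monocytes, for S100A7 and S100A7A of the epidermis, for S100B of glia and melanocytes, or for S100G and S100Z. The table lists no value of 0 in either library, so a gene with none is described only as having none. Fused S100 genes, which encode long repeat proteins of the epidermal barrier, had values for 4 of 7, with a median of 0.838 FPKM, from FLG2 at 2.24 ± 0.0212 and TCHH at 0.995 ± 0.262 to HRNR at 0.630 ± 0.127.

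Of the 8 other annexins listed, 4 had a value, 1 of them above the median gene, with a median of 7.44 FPKM, against 53.7 for the 5 members. ANXA11 had 16.3 ± 0.707 FPKM, 1.39 times the median gene and above the member ANXA7, and it was followed by ANXA4 (9.37 ± 2.08), ANXA9 (5.51 ± 0.0424) and ANXA3 (5.18 ± 0.841). ANXA8, ANXA8L1, ANXA10 and ANXA13 had no value. The members were chosen with earlier results of these data known, so these contrasts describe the families and do not test the members against their relatives.

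The neighbours of the annexins on their chromosomes were lower in mean FPKM than the annexins in each of the 5 cases with a value. These neighbours lay near the median gene (11.7 FPKM), and the annexins were chosen with earlier results known. The count thus describes the levels and shows nothing particular to the annexin loci. ANXA2 was 19.7-fold above ICE2 (9.44 ± 1.86 FPKM), ANXA1 5.08-fold above ALDH1A1 (12.035 ± 0.403) and ANXA6 3.89-fold above TNIP1 (8.77 ± 0.481). ANXA7 differed little from the genes beside it, at 1.27-fold above CFAP70 (10.5 ± 0.403) and 1.25-fold above MSS51 (10.7 ± 1.19). The coding genes beside ANXA5 had no value. S100A10 was 2.50-fold above THEM4 (9.23 ± 0.120).

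Genes for proteins that bind S100 proteins or annexins had a median of 18.2 FPKM over 13 of 19 listed. MYH9 was the highest and was followed by AHNAK (62.4 ± 8.87 FPKM), a giant scaffold protein bound by the S100A10 and ANXA2 complex, and AHNAK2 was lowest (3.56 ± 0.226). AHNAK thus lay between S100A10 and ANXA2 in level. No value was listed for FPR1 and FPR2, the receptors for ANXA1 outside the cell, for plasminogen (PLG), or for the channel genes TRPV5, TRPV6 and KCNK3.

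**Figure D4:**
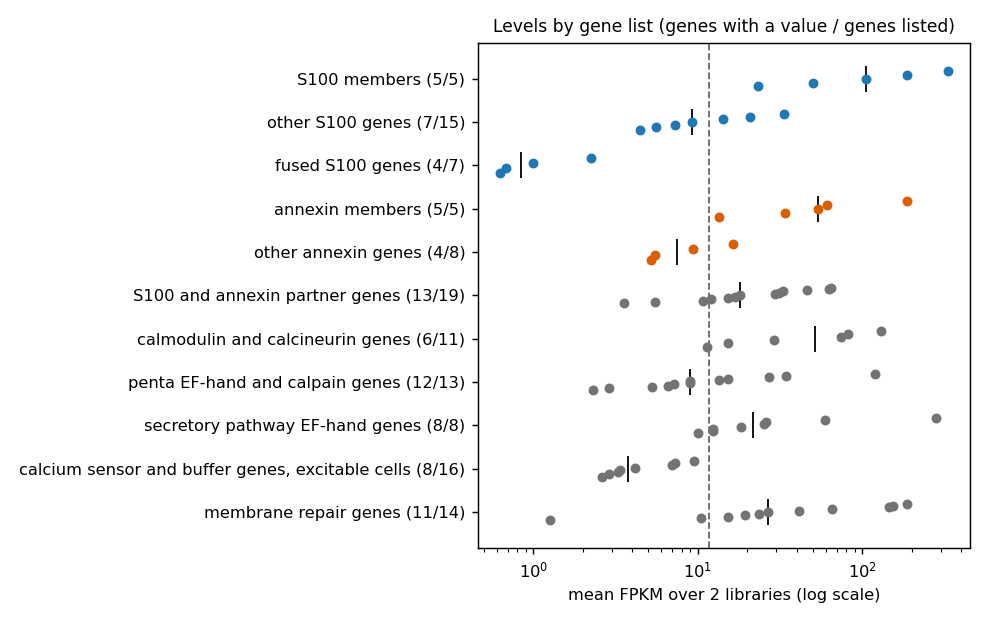
Mean FPKM over the 2 libraries on a log axis, a dot for each gene with a value and a bar at the median of each list; the dashed line is the median of all genes, and the counts are genes with a value out of genes listed. The members of both families lie to the right of their relatives, apart from S100A10 and ANXA7, which lie among them.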

How the data were processed

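FPKM values were made by the authors and deposited for 12353 Ensembl genes in 2 columns, taken here as library a and library b because the column letters are not tied to the replicate numbers of the labels. Bowtie2, HTSeq and hg19 are named, without versions, in the submitters' processing notes. The sources used here do not state the length, read total or minimum behind the FPKM, and depth is unknown. Current symbols were matched to 12202 identifiers through an Ensembl name table. Neighbours, overlaps and upstream sequences came from RefSeq on GRCh38.p14.

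Levels are FPKM. Log2 ratios, the folds between members or partners and the factors between libraries are on log2(FPKM + 0.1), averaged over the libraries, which slightly understates folds of low genes. Folds over the median gene, within and between the families, and over chromosomal neighbours are plain ratios of mean or median FPKM. A ratio was called beyond the spread where its mean exceeded 2 SD over the libraries. Percentiles and medians are over all 12353 genes with a deposited value, and no further low-value filter was used. The lowest values were 0.29 in library a and 0.27 in library b. Genes with no value are not part of this background. Alternatives were pseudocounts of 1 and 0, a mean FPKM of at least 1, mitochondrial genes left out, quantile normalization, no centring, and each library left out. The recovery of known levels and ratios was checked on simulated data, which did not test the 2 SD rule. Python 3.11.15, pandas 2.3.3 and numpy 2.4.6 were used.

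The members and lists were chosen with earlier results of these data known. The text names the members, all other S100 and annexin genes with a value, the partner genes, the 2 highest genes and the lowest gene of each other list, and adjacent genes. Other names were given for their roles, as genes with no value.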

Additional observations from a re-analysis of the deposited data

How the results depend on the processing

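The log2 ratio of S100A10 over ANXA2 ran from -3.01 to -3.00 with each library left out, that of S100A11 over ANXA1 from 0.67 to 0.87, and the median of the 10 genes over that of all genes, 2.29 on the log2 scale, from 2.27 to 2.29. With a pseudocount of 1 the first came to -2.96 and the median to 2.20. Of 87 recomputed levels and ratios, 1 changed sign, the level of ANXA7 over the median gene, which was 0.17 with both libraries and -0.088 without library b (0.42 without library a). The cause was not tested. Of 60 recomputed differences between libraries 5 changed sign, all for ANXA1, ANXA2 and ANXA5, whose differences are near 0. No paired analysis was possible because all samples form 1 group. With 2 libraries and no counts, counting error cannot be given, and an unknown gene length enters every level and ratio between genes.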

Other observations

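Other calcium-binding genes were described by lists of the same kind. Calmodulin and calcineurin genes, a list that also holds relatives such as CALML4 and CHP1, had values for 6 of 11. Their median was 51.6 FPKM. That was near the median of the 10 S100 and annexin members (57.4) and above those of the other S100 genes (9.20) and other annexins (7.44). CALM2 (129 ± 12.1 FPKM) and CALM3 (81.3 ± 10.96), which encode the same calmodulin protein, were highest and CHP1 lowest (11.3 ± 0.191). Penta-EF-hand and calpain genes had values for 12 of 13, with a median of 8.98 FPKM. The small calpain subunit gene CAPNS1 had 120 ± 0.608 FPKM, CAPN2 34.5 ± 3.55 and CAPN15 2.30 ± 0.608. The EF-hand genes of the secretory pathway all had values (8 of 8, median 21.7 FPKM), led by the matrix protein gene SPARC (282 ± 16.4) and calumenin, CALU (59.2 ± 6.07), with NUCB2 lowest (10.0 ± 1.27).

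Calcium sensor and buffer genes known from neurons and muscle had values for 8 of 16 and a median of 3.78 FPKM, from GUCA1B (9.51 ± 2.10) and HPCAL1 (7.26 ± 2.13) to VSNL1 (2.60 ± 0.0849). Genes of plasma membrane repair, a process in which annexins take part, had values for 11 of 14 and a median of 26.9 FPKM. CHMP2A, of the ESCRT machinery, had 187 ± 1.53 FPKM and the caveolar gene CAVIN1 154 ± 16.7, whereas DYSF, the muscle repair gene dysferlin, had 1.26 ± 0.0212.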
